A study of Mus musculus with 2 samples.

Results

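A set of 10 heart regulators and heart hormones was followed through RNA of whole embryonic mouse lung: the transcription factors Nkx2-5, Hand1, Hand2, Mef2a, Mef2c, Irx4 and Irx3, the muscle methyltransferase Smyd1, and the natriuretic peptide genes Nppa and Nppb. They are 10 of the 41709 genes in the deposited tables, and were found by matching their symbols to NCBI gene numbers. They were picked because heart genes stood far higher in one of the 2 libraries, so their ratios describe those libraries and are no test. One library is labelled Prmt5 knockdown; its title names Shh beside Prmt5, while alleles, means of knockdown and the cells concerned have no label. The other library is labelled control, and the design text calls it wild type. Both came from C57BL/6 embryos at E14.5, and each pooled 7 lungs into 1 library of polyadenylated RNA. With 1 library per genotype there is no replicate check, no p-value is given, and genotype, pool and dissection cannot be told apart.

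In the mouse embryo the heart muscle programme is held by a small set of factors that bind next to one another and raise each other's genes. Nkx2-5, GATA and T-box proteins act on the same stretches of DNA, MEF2 proteins switch on contractile genes, and HAND and Iroquois proteins mark regions of the heart. Natriuretic peptides are hormones that heart muscle secretes and that lower blood pressure and salt load. The lung is not free of heart muscle in the mouse: the walls of its veins carry a sleeve of it. Several of the factors also have work outside the heart, among them Irx3 in lung epithelium, Hand2 in sympathetic neurons and limb buds, and Mef2c in skeletal muscle, endothelium and neurons.

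The Prmt5 knockdown library held 25829281 counted reads and the control library 22581490. Prmt5 itself had 2127 reads in the Prmt5 knockdown library and 2704 in the control, a log2 ratio of -0.43 (95% counting interval -0.51 to -0.35). Shh, a ligand of the lung epithelium, had 109 reads in the Prmt5 knockdown library and 1124 in the control. Ratios are of counts scaled by the trimmed mean of M values, and a gene was called higher or lower when its ratio reached 1.5, its counting interval excluded 1 and at least 1 library held 50 reads. Nkx2-1, the defining factor of lung epithelium, had 895 reads in the Prmt5 knockdown library and 7550 in the control. In all, 7 of 9 lung epithelium markers were lower in the Prmt5 knockdown library (median log2 ratio -2.18), led by Nkx2-1 (-3.16), Sftpc (-2.84), Epcam (-2.36) and Foxa1 (-2.26). Fewer cells of a type and less RNA per cell cannot be told apart in RNA of whole lungs. The markers of other organs stood apart as well. All 8 liver markers were higher (median 7.48) and took 0.987% of the Prmt5 knockdown reads against 0.00579% of the control reads, among them Fgb (8.45), Alb (7.72), Fga (8.0) and Afp (7.29). The part of these other tissues in the values of the heart genes was not tested.

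Of the 10 genes, 8 were higher in the Prmt5 knockdown library, 1 was lower and 1 was not called. Among all 14569 measured genes 20.7% were called higher and 12.3% lower by the same rule (33% in either direction), and 7.36% were at least 4-fold higher, as were 7 of the 10. Since the genes were chosen on this contrast, nothing is read from these counts. The share of higher genes among all called genes depended on scaling, at 62.7% here, 52.3% with total counts and 53% with FPKM at a pseudocount of 0.1. The median of all measured genes was -0.01, and -0.12 with total counts. The median of the 10 genes was 5.30, or 4.70 with a prior count of 5 and 3.05 with FPKM and a pseudocount of 1. Single values ran from -2.59 for Irx3 to 8.09 for Nppa, so the genes did not move as one group. Nppb, with 0 control reads, stood at 7.52 when 3 reads are taken as the limit of the control.

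**Figure D1:**
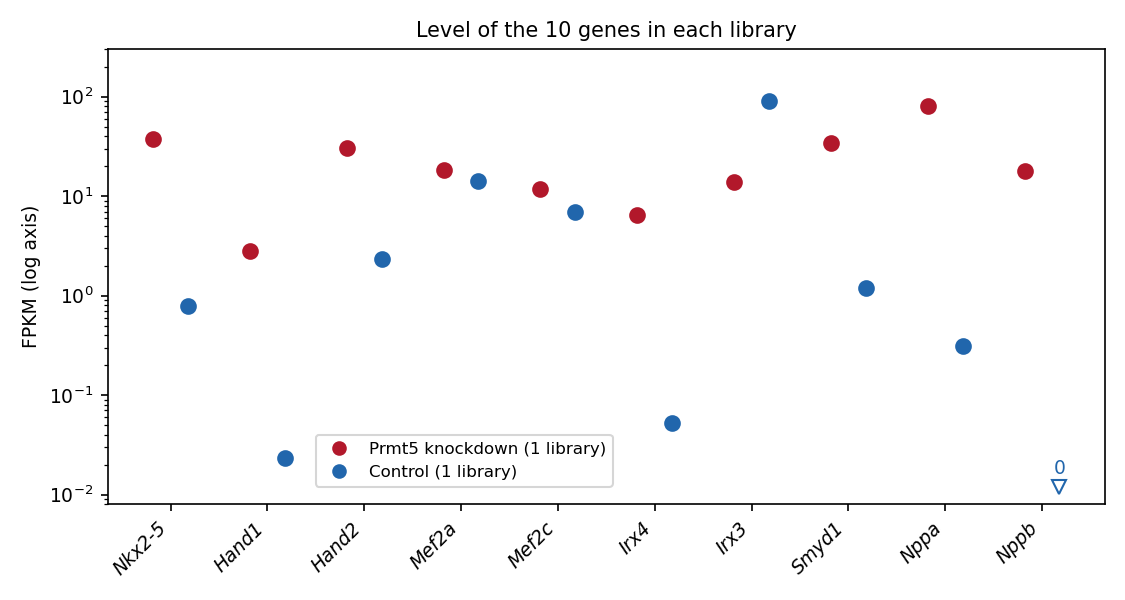
Level of each of the 10 genes in FPKM (reads scaled to gene length and library total, log axis) in the Prmt5 knockdown library (red, left) and the control library (blue, right), 1 library each with no error bar. The open triangle marks Nppb, which had 0 reads in the control. Irx3 is the gene whose control value lies above its Prmt5 knockdown value, and Mef2a and Mef2c are the pair whose points lie close together.

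Per length, the order of the genes was not the same in the libraries. In the Prmt5 knockdown library Nppa came first at 81.4 FPKM, followed by Nkx2-5 at 37.9, Smyd1 at 33.9, Hand2 at 30.7, Mef2a at 18.5, Nppb at 18, Irx3 at 13.8, Mef2c at 11.8, Irx4 at 6.51 and Hand1 at 2.81 FPKM. Only the neighbours Mef2a and Nppb had overlapping Poisson intervals there. In the control library Irx3 came first at 89.7 FPKM, followed by Mef2a at 14.1, Mef2c at 6.99, Hand2 at 2.32, Smyd1 at 1.19, Nkx2-5 at 0.795, Nppa at 0.309, Irx4 at 0.0526, Hand1 at 0.0233 and Nppb at 0. From Smyd1 to Nkx2-5, from Nkx2-5 to Nppa and from Irx4 to Nppb the intervals of neighbours overlapped, so their order in the control is not settled by these reads. Nppa thus stood first of the 10 in the Prmt5 knockdown library and seventh in the control.

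The natriuretic peptide genes had high ratios, in a range that the counting intervals of Hand1 and Irx4 also reach. Nppa (NCBI gene 230899, chromosome 4, 148000722 to 148002074 on GRCm38.p6) encodes atrial natriuretic peptide, which atrial muscle and the embryonic ventricle make. It had 3617 reads in the Prmt5 knockdown library and 12 in the control, 273-fold higher with a counting interval of 163-fold to 551-fold (log2 8.09, 7.34 to 9.11), and stood at rank 24 of all measured genes from the top. Nppb (NCBI gene 18158, chromosome 4, 147985786 to 147987205) encodes brain natriuretic peptide, a hormone of ventricular muscle. It had 583 reads in the Prmt5 knockdown library and 0 in the control. When 3 reads are taken as the limit of the control it was 183-fold higher. Its counting interval began lower, at 149-fold, with no upper end. Nppb reached 18 FPKM in the Prmt5 knockdown library, and its 0 reads in the control have an upper Poisson limit of 0.130 FPKM. Per length, Nppa was 4.52 times as abundant as Nppb in the Prmt5 knockdown library (4.14 to 4.94), and the counting interval of this ratio in the control began at 2.02, with no upper end.

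The DNA before the start of these genes is shown because motifs of NKX2-5 and of transcription factors outside the set can be looked for in it. Capitals mark matches, on either strand, to GATA (AGATA or TGATA), the NKX2-5 core (AAGTG), a T-box motif (AGGTGT) and a TEAD site (CATTCC). Sequences are from RefSeq on GRCm38.p6 and run 5′ to 3′ along the gene. For Nppa and Smyd1 and for Hand2 the 250 bases before the annotated start are printed, at chr4:148000472-148000721 (plus strand), chr6:71262282-71262531 (minus strand) and chr8:57320733-57320982 (plus strand). For Nppb only the 30 bases from position -109 to -80 are printed (chr4:147985791-147985820, plus strand), which hold its matches; the start used there lies inside the gene's span given above.
Nppa: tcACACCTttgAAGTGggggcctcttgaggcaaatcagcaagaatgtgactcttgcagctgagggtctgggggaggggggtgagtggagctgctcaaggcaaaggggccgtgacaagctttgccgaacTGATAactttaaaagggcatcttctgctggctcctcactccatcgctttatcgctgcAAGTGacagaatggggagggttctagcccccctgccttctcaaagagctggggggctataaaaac
Nppb: ggcaGGAATGcagcTGATAaatcagAGATA
Smyd1: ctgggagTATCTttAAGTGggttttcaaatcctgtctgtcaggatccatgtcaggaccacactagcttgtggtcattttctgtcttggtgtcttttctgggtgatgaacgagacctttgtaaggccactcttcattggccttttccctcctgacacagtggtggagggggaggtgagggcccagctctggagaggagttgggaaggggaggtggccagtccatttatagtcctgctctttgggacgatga
Hand2: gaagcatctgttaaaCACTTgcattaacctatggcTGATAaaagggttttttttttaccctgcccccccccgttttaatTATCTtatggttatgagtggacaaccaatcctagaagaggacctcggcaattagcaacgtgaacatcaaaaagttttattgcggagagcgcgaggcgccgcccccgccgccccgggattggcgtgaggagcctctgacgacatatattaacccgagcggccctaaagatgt

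In the Nppa window a T-box motif at -248 and an NKX2-5 core at -239 lay beside each other at the far end. A GATA match followed at -122 and a second NKX2-5 core at -65, which lies inside an E-box (CANNTG, the letters that HAND proteins and other basic helix-loop-helix factors bind). Nppb held a TEAD site at -105 and GATA matches at -95 and -84, with an E-box at -99 that overlaps the first of them, and no NKX2-5 core in its window. Smyd1 had a GATA match at -243 and an NKX2-5 core at -236. Hand2 had an NKX2-5 core at -235, inside an E-box, and GATA matches at -215 and -171. These short motifs are common: 40% of the 32851 RefSeq windows of 250 bases held GATA, 40.7% the NKX2-5 core, 11.8% the T-box motif, 12.6% the TEAD site and 66.2% an E-box, and 17.9% held GATA and the NKX2-5 core together.

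**Figure D2:**
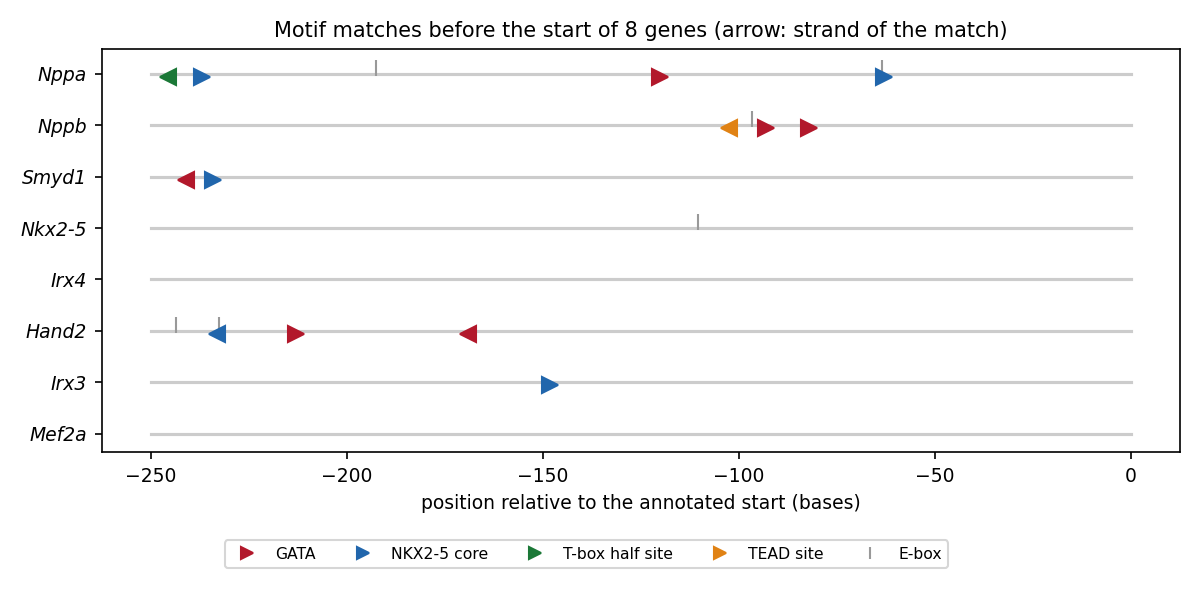
Motif matches in the 250 bases before the annotated start (x axis, bases from the start) for the 8 genes with a single RefSeq window. Arrowheads point along the strand of the match, and grey ticks are E-boxes. Nppa, Smyd1 and Hand2 hold both a GATA match and an NKX2-5 core, and Irx4 and Mef2a hold no match to any motif drawn.

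Of the 10 genes all but Hand1 were matched to a RefSeq window (Mef2c to 3 of them), 4 with GATA (Hand2, Smyd1, Nppa and Nppb) and 5 with the NKX2-5 core (Hand2, Mef2c, Irx3, Smyd1 and Nppa). Irx3 was thus among the genes with an NKX2-5 core, at -150, and it was the lower gene of the set. Nkx2-5 and Irx4, each higher in the Prmt5 knockdown library, had neither motif in the window. For Nkx2-5, Irx4 and Mef2a the window lies inside the gene's span, so DNA before its outer end was not searched. The Nppb window lies only partly inside: it runs from 147985650 to 147985899, and the span begins at 147985786. The MEF2 site and the CArG box, the motif of serum response factor, were in none of the windows of these genes and in 2.92% and 1.47% of all windows. A match is a run of letters and not a bound site.

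The genes that process and sense natriuretic peptides did not share the ratios of the hormones. Of 8 such genes 7 were measured, 2 were higher, 1 was lower and 4 were not called, with a median of -0.10. Corin, the protease that heart muscle uses to cut the Nppa precursor, had 525 reads in the Prmt5 knockdown library and 61 in the control (log2 3.01, 2.64 to 3.43). Mme, a protease that degrades the peptides, was also higher (1.03, with 260 and 120 reads in the Prmt5 knockdown and control libraries). The receptors were near the median of all genes or below it, with Npr1 at -0.34, the clearance receptor Npr3 at -0.10 and Npr2, the receptor of the related peptide Nppc, called lower at -0.62. Furin, which cuts the Nppb precursor, stood at -0.19, and Prkg1, a kinase activated by the cyclic GMP that the receptors make, at 0.37. Nppc itself had 12 reads in the Prmt5 knockdown library and 2 in the control, too few to be measured.

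Nkx2-5 and Smyd1 had ratios near those of heart muscle genes at large. Nkx2-5 (NCBI gene 18091, chromosome 17, 26838664 to 26844988), the homeobox factor of early heart cells, had 1579 reads in the Prmt5 knockdown library and 29 in the control, 50.5-fold higher (35.6-fold to 76.9-fold). Smyd1 (NCBI gene 12180, chromosome 6, 71213940 to 71262281), a histone methyltransferase of heart and skeletal muscle that is needed to build ventricles and sarcomeres, had 2929 reads in the Prmt5 knockdown library and 90 in the control, 30.5-fold higher (24.9-fold to 38.3-fold). Smyd1 was the SMYD gene with such a value: none of the 4 others was called, and they ran from -0.53 for Smyd5 (called lower with total counts) to 0.13 for Smyd2. Skeletal muscle markers were higher in the same library, 11 of 11 measured with a median of 5.27, among them Ckm (5.96), Mylpf (5.46), Acta1 (5.37) and Myh3 (5.27). Their summed share was 0.0921% of the Prmt5 knockdown reads and 0.00286% of the control reads. How the Smyd1 reads divide between heart and skeletal muscle was not tested.

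**Figure D3:**
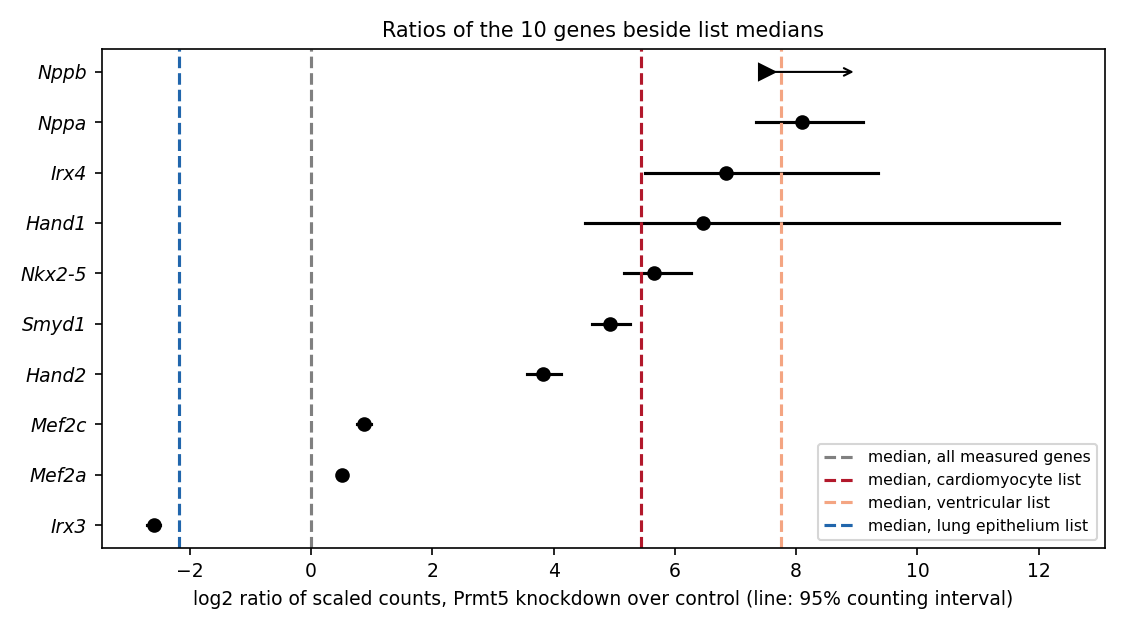
Log2 ratio of scaled counts, Prmt5 knockdown over control, for each of the 10 genes (points) with 95% counting intervals (lines). The arrow for Nppb starts at 7.52, its value with 3 reads taken as the control limit, and its counting interval began at 7.22. Dashed lines are the medians of all measured genes (-0.01), the cardiomyocyte list (5.44), the ventricular list (7.76) and the lung epithelium list (-2.18). Irx3 lies to the left of the last of these, and Nppa lies beside the ventricular line.

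HAND genes were both higher, by different amounts of evidence. Hand1 (NCBI gene 15110, chromosome 11, 57828713 to 57832147), a basic helix-loop-helix factor of the left ventricle and of extraembryonic tissue, had 138 reads in the Prmt5 knockdown library and 1 in the control. Its ratio of 88.0-fold carries an interval of 23.0-fold to 5179-fold, so the size of its difference is poorly fixed. A noncoding RNA annotated across it, Gm32915, had 11 reads in the Prmt5 knockdown library and 0 in the control, and the strand setting of the counts is not given in the sources used here. Hand2 (NCBI gene 15111, chromosome 8, 57320983 to 57324517), its relative of the right ventricle, limb buds, pharyngeal arches and sympathetic neurons, had 1771 reads in the Prmt5 knockdown library and 117 in the control, 14.2-fold higher (11.8-fold to 17.4-fold). Per length Hand1 was 0.0918 times as abundant as Hand2 in the Prmt5 knockdown library (0.0766 to 0.109), and 0.0101 times in the control (2.53e-04 to 0.0572).

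HAND proteins bind DNA in pairs with the widely made E proteins, and compete with TWIST factors for them. Of the 5 E protein and TWIST genes 1 was higher, Twist1 (2.86, with 1048 and 136 reads in the Prmt5 knockdown and control libraries). Tcf3 (-0.84) and Tcf12 (-0.66) were lower, and Tcf4 (-0.35) and Twist2 (-0.40) were not called. Markers of sympathetic neurons and ganglia moved with Hand2. Of 10 such markers 7 were higher and the median was 1.92, among them Dbh (3.46), Chga (3.38), Th (3.16) and Tubb3 (1.89). Their summed reads were 3064 in the Prmt5 knockdown library and 1173 in the control. Their part in the Hand2 difference was not tested.

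MEF2 genes had the ratios closest to 1 in the set and were abundant in both libraries. Mef2c (NCBI gene 17260, chromosome 13, 83504017 to 83667079), a factor that early heart and skeletal muscle need, had 1780 reads in the Prmt5 knockdown library and 920 in the control, 1.82-fold higher (1.68-fold to 1.98-fold). Mef2a (NCBI gene 17258, chromosome 7, 67231163 to 67376456), its relative that many tissues make, had 2682 reads in the Prmt5 knockdown library and 1780 in the control. The Mef2a ratio of 1.42 (1.34 to 1.51) did not reach 1.5 and was not called. Mef2c was 0.639 times as abundant as Mef2a per length in the Prmt5 knockdown library (0.601 to 0.678) and 0.497 times in the control (0.459 to 0.539). The other family members moved less or were nearly silent: Mef2d stood at 0.09, and Mef2b had 0 reads in the Prmt5 knockdown library and 2 in the control. Endothelium, another site of Mef2c, had 1 of 6 markers called lower, Cdh5 (-0.61), with 4 of 6 lower under total counts and 0 under DESeq2 size factors, with none higher and a median of -0.51.

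Iroquois genes did not share a direction. Irx4 (NCBI gene 50916, chromosome 13, 73259589 to 73269622), the homeobox factor that marks ventricular muscle, had 425 reads in the Prmt5 knockdown library and 3 in the control, 115-fold higher (45.4-fold to 651-fold). Irx3 (NCBI gene 16373, chromosome 8, 91798511 to 91801654), which also acts in the conduction system of the heart, went the other way, with 837 reads in the Prmt5 knockdown library and 4772 in the control, 6.04-fold lower (5.61-fold to 6.51-fold). Irx1 (-2.41), Irx2 (-1.99) and Irx5 (-2.07), which with Irx3 are known from embryonic lung, were lower too, with a median of -2.07. Irx6 had 49 reads in the Prmt5 knockdown library, 1 short of the read minimum, and 0 in the control. By the same limit of 3 reads it was 15.4-fold higher, with an interval from 12.1-fold. Per length Irx4 was 0.473 times as abundant as Irx3 in the Prmt5 knockdown library (0.420 to 0.533) and 5.86e-04 times in the control (1.21e-04 to 0.00171).

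**Figure D4:**
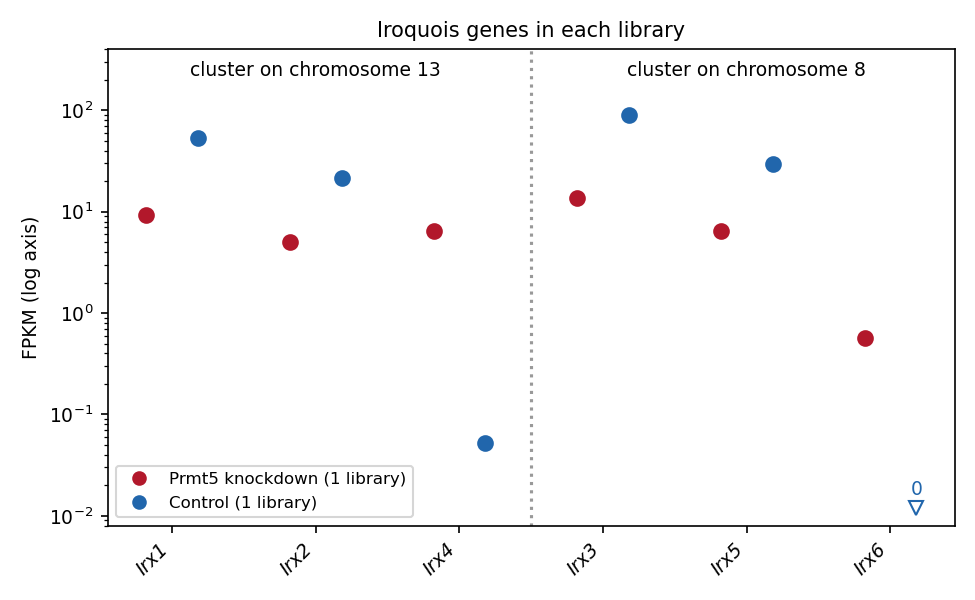
FPKM (log axis) of the 6 Iroquois genes in the Prmt5 knockdown library (red, left) and the control library (blue, right), arranged by their gene clusters on chromosomes 13 and 8. In each cluster the control point is the upper one for all genes but the last drawn: Irx4 had 0.0526 FPKM in the control, and Irx6 was listed at 0 there (open triangle).

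Neighbouring Iroquois genes differed in direction. Irx4 lies 625 kb from Irx2 and 1296 kb from Irx1 and had the opposite direction from both, and Irx6 lies beyond Irx5 on the other cluster. The value of Irx3 (-2.59, -2.70 to -2.49) lay within the range of the 9 lung epithelium markers and below their median of -2.18. That range was wide, from -3.16 for Nkx2-1 to 0.11 for Krt18. It also held Tbx2 (-1.93), a factor of lung mesenchyme.

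Nppa and Nppb are neighbours, 13.5 kb apart, and the genes around the pair did not share their difference. Clcn6, 2.2 kb beyond Nppa, stood at -0.36 and Plod1 at 0.38, neither of them called. Over the nearest protein-coding genes on each side of the 10 genes, 36 genes outside the set, 32 were measured, of which 4 were higher, 3 lower and 25 not called (median 0.09). The 3 lower ones were Irx1, Irx2 and Irx5. The 4 higher ones were named after their values were seen: Fabp1, a fatty acid carrier of liver and gut 8.9 kb from Smyd1 (6.31, with 630 and 7 reads in the Prmt5 knockdown and control libraries), Thnsl2 (0.88), Fbxo8 (0.85) and Mblac2 (0.65).

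Other cardiac transcription factors went in both directions. Of 26 listed, 24 were measured, 8 were higher, 5 were lower and 11 were not called, with a median of 0.17. Ankrd1, a muscle cofactor, was highest (6.96, with 3893 and 29 reads in the Prmt5 knockdown and control libraries), and after it came the T-box factor Tbx20 (4.30) and Tbx18 (2.90), a factor of the heart's outer layer and venous pole. Gata4 (2.89), the ventricular repressor Hey2 (2.45), Hopx (2.25) and Isl1 (1.76), a factor of heart progenitors and neurons, were higher as well. The lower ones were Tbx2 (-1.93), Tbx3 (-1.61), Gata5 (-1.30), Tbx5 (-1.28) and Nr2f2 (-1.0), of which Tbx2, Tbx3 and Tbx5 are also factors of lung mesenchyme. Gata6 (0.45), which lung epithelium and heart both use, the heart and smooth muscle cofactor Myocd (-0.23) and Srf (-0.55) were not called. Tbx1 and Mef2b were not measured.

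Genes known as targets of these factors were more uniform. Of 8 such genes 7 were higher and none lower, with a median of 4.70; Ankrd1 and Myocd are also among the factors above, and Actc1 and Csrp3 among the cardiomyocyte markers. Ankrd1, Xirp1 (6.24), a scaffold of the heart muscle's cell junctions, Popdc2 (5.48), Csrp3 (5.05), the cardiac actin Actc1 (4.35), the sodium and calcium exchanger Slc8a1 (2.35) and the gap junction gene Gja5 (1.43) were higher, and Myocd was not called. Gja5 is also made by arterial endothelium, and had 1384 reads in the Prmt5 knockdown library against 483 in the control.

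**Figure D5:**
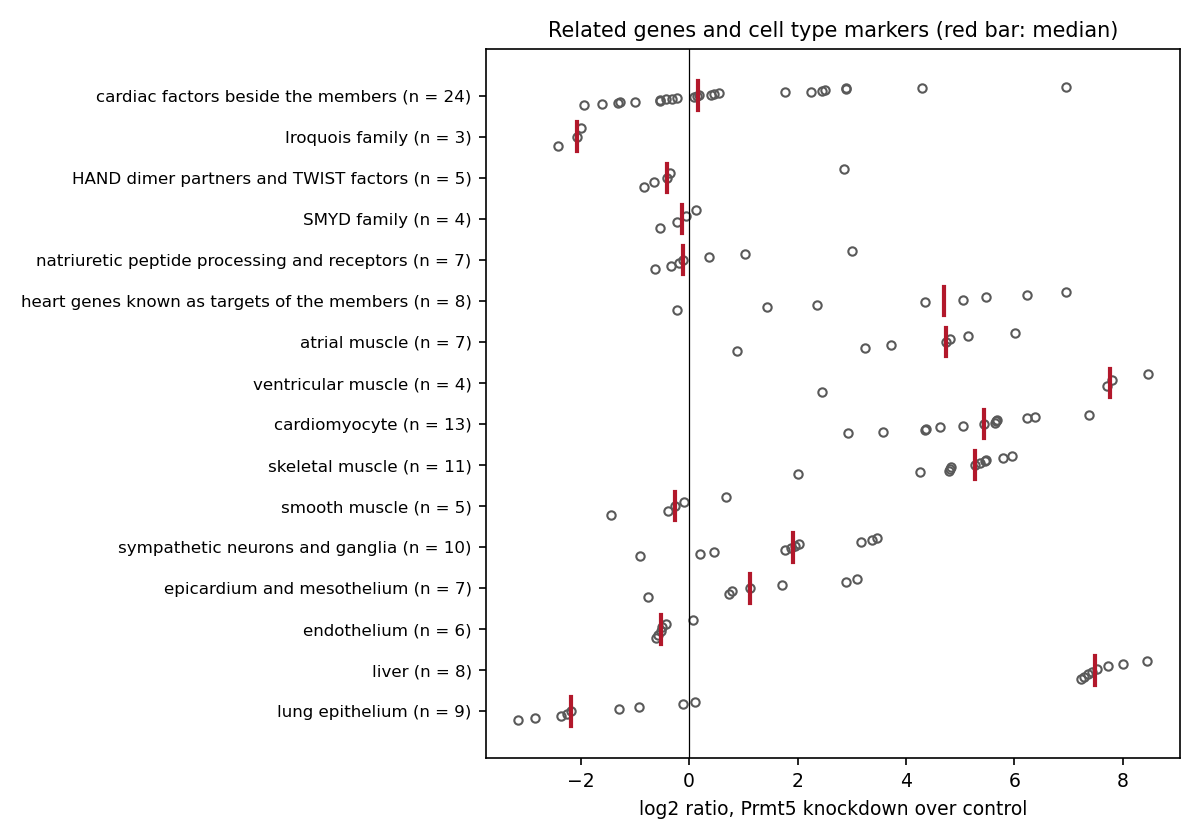
Log2 ratio, Prmt5 knockdown over control, of each measured gene (circles) in the lists of related genes and cell type markers, with list medians as red bars. Bmp10, with 0 control reads, is drawn at a bound, and its counting interval began at 5.69. Heart and skeletal muscle lists, target genes and liver lie to the right, at medians of 4.70 to 7.76, and lung epithelium to the left, at -2.18.

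Heart muscle as a whole was far higher in the Prmt5 knockdown library. All 13 cardiomyocyte markers were called higher (median 5.44), among them Pln (7.38), Actn2 (6.39), Mybpc3 (6.24) and Tnnt2 (5.66), and their summed reads were 0.605% of the Prmt5 knockdown library and 0.0226% of the control. None of the 13 was at 0 in the control. Ventricular markers had a larger median ratio than atrial ones. All 4 ventricular markers were higher (median 7.76), the light chains Myl2 (7.8) and Myl3 (7.71), the heavy chain Myh7 (8.47) and Hey2 (2.45). All 7 atrial markers were higher as well (median 4.73), with Sln (5.15), Myl4 (4.81) and Myl7 (3.72) among them. Bmp10 had 204 reads in the Prmt5 knockdown library and 0 in the control. With the same control limit as used for Nppb, Bmp10 was 64.1-fold higher. Its counting interval began lower, at 51.7-fold, with no upper end. The ventricular list had 1.45 reads for each atrial read in the Prmt5 knockdown library (1.43 to 1.47) and 0.163 in the control (0.142 to 0.185). Ventricular reads were thus the larger sum in the Prmt5 knockdown library, and atrial reads the larger sum in the control. Myl2 (19787), Myh7 (13712) and Myl3 (12335) gave most of the 46351 ventricular reads in the Prmt5 knockdown library. Hey2 gave 517 there and stood below the atrial median. Skeletal muscle markers were higher in the same library, and the part of skeletal muscle in these sums was not tested. Hey2 is also among the cardiac factors.

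Set against heart muscle, the 10 genes had different values. The order of Nppa, Irx4, Hand1, Nkx2-5 and Smyd1 by ratio was only partly settled, since the intervals of neighbours overlapped. For each 1000 reads of the cardiomyocyte list, Nppa had 23.2 reads in the Prmt5 knockdown library (22.4 to 23.9) and 2.35 in the control (1.21 to 4.11). Irx4 had 2.72 (2.47 to 2.99) in the Prmt5 knockdown library and 0.587 (0.121 to 1.72) in the control. Nkx2-5 had 10.1 (9.61 to 10.6) in the Prmt5 knockdown library and 5.68 (3.8 to 8.17) in the control. For all 3 genes the Prmt5 knockdown interval thus lay above the control interval on the scale of this list. Actc1, at a log2 ratio of 4.35, gave 59556 of the 156190 list reads in the Prmt5 knockdown library. In the control it gave 2762 of 5107. The summed reads had a log2 ratio of 4.85, below the list median of 5.44. Against the ventricular list Nkx2-5 and Irx4 had negative differences, given with the medians of the lists. The intervals of Smyd1 overlapped, at 18.8 (18.1 to 19.5) in the Prmt5 knockdown library and 17.6 (14.1 to 21.7) in the control. Those of Hand1 overlapped too, at 0.884 (0.742 to 1.04) in the Prmt5 knockdown library and 0.196 (0.00496 to 1.09) in the control. Nppb had 3.73 (3.44 to 4.05) in the Prmt5 knockdown library and 0 in the control, with an upper limit of 0.723. Hand2 was lower on this scale, at 11.3 (10.8 to 11.9) against 22.9 (18.9 to 27.5) in the control, and Mef2c was much lower, at 11.4 against 180 in the control. For Mef2a the values were 17.2 and 349, and for Irx3 5.36 and 934, in the Prmt5 knockdown and control libraries.

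Relative to the cardiomyocyte median of 5.44, the log2 ratio of Nppa was higher by 2.66 and that of Irx4 by 1.41. That of Hand1 was higher by 1.02 and that of Nkx2-5 by 0.22. Their intervals (4.52 to 12.3 and 5.15 to 6.27) included this median. Nppb stood 2.08 above the median with 3 reads taken as the control limit, and its interval began at 7.22. Smyd1 stood at -0.50, and its interval (4.64 to 5.26) lay below the cardiomyocyte median. Hand2 stood at -1.61, Mef2c at -4.57, Mef2a at -4.93 and Irx3 at -8.03. The choice of heart list mattered: against the ventricular median of 7.76 Nkx2-5 was at -2.10, Hand1 at -1.30 and Irx4 at -0.91. Nppa was at 0.34, and Nppb, with 3 reads taken as the control limit, at -0.24. The intervals of Nppa (7.34 to 9.11), Irx4 (5.51 to 9.35), Hand1 and Nppb included the ventricular median. Among 10865 genes with at least 200 reads in the Prmt5 knockdown library, those with a log2 ratio nearest to Nppa were the liver genes Fga (8.0), Cpb2 (7.97) and C8b (8.22), and those nearest to Nkx2-5 were the clotting factor F10 (5.66), the heart troponin Tnnt2 (5.66) and Marco (5.65), a macrophage receptor. Cpb2 and C8b had 1 control read each, so their nearness to Nppa is poorly fixed (intervals of 6.06 to 13.8 and 6.31 to 14.1). This likeness rests on 1 ratio between 2 libraries.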

How the data were processed

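Polyadenylated RNA of E14.5 whole lung was sequenced in 1 Prmt5 knockdown and 1 control library of 7 pooled lungs each, with TRIZOL extraction and an NEBNext Ultra library kit (per the labels' protocols). Build mm10 and the tools TopHat2 2.0.12, HTSeq 0.6.1 and Bowtie2 2.2.3 come from the submitters' processing notes. The gene annotation, strand setting and treatment of multi-mapped reads have no statement in the labels or notes. The authors deposited raw read counts per gene and FPKM values for 41709 genes. Of these, 40269 were matched to a RefSeq symbol (GRCm38.p6), and 138 had no NCBI number. The FPKM values deposited by the authors equal the counts over a gene length and the library total.

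Counts were scaled by TMM factors of 0.963 (Prmt5 knockdown) and 1.04 (control; edgeR 4.0.16, R 4.3.3). Ratios used a prior count of 0.5, and the 95% intervals are exact Clopper-Pearson intervals of the counts given their sum. Intervals on FPKM are exact Poisson intervals. Intervals and the floor of 3 counts cover counting error only, and reads without molecular identifiers may include PCR copies. The rule was tested on simulated counts with known folds. DESeq2 1.42.0 gave alternative size factors. Figures were drawn with matplotlib 3.10.9 (Python 3.11.15). The 10 genes and the 16 lists were chosen with earlier results of these data known. From each cell type list up to 4 called genes (those whose interval stayed farthest from a ratio of 1) and called genes against the list's median were named. All genes of the related lists could be named. No protein sequences were used here. The values of some listed or neighbouring genes are not reported here.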

Additional observations from a re-analysis of the deposited data

How the results depend on the processing

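Under 11 other settings the 10 genes gave 110 values, of which 0 changed direction and 108 kept their call. Hand1 was not called with a minimum of 200 reads, and Mef2c was not called at a ratio of 2. The count of higher genes in the set was 7 in each of those settings and 8 in the other 9. Among all measured genes, 1956 were higher with a minimum of 200 reads and 703 were lower at a ratio of 2, against 3020 and 1795; fewer genes are tested or pass by construction. The median of all measured genes was 0.022 with DESeq2 size factors, and the median of the natriuretic peptide processing and receptor list was 0.13 with no read minimum, which adds the thinly counted Nppc. Relative to heart muscle, Nkx2-5 (-2.10), Hand1 (-1.30), Irx4 (-0.91) and Nppb (-0.24, with 3 reads taken as the control limit) turned negative with the ventricular list. Smyd1 turned positive with summed cardiomyocyte reads (0.082) and with the atrial list (0.20). The size of ratios resting on few control reads depended on the pseudocount, and the cause of the other changes was not tested. With FPKM and a pseudocount of 1 the log2 ratio of Hand1 was 1.90, that of Irx4 2.84 and that of Nppa 5.98. Nppb, with 0 control reads, stood at 4.25 in that setting and at 6.84 with a prior count of 5. No paired analysis was possible because each genotype has 1 library, and for the same reason no library could be left out.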

Other observations

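Markers of the heart's outer layer and of the lung's lining, which share many genes, were mostly higher in the Prmt5 knockdown library. Of 7 such markers 6 were higher and 1 was lower, with a median of 1.13. Msln had 475 reads in the Prmt5 knockdown library and 52 in the control (log2 3.10), and Tbx18 had 706 and 89 (2.90) in the Prmt5 knockdown and control libraries. Bnc1 (1.72) and Wt1 (1.13) were higher too. Tcf21, which lung mesenchyme also makes, had 1850 reads in the Prmt5 knockdown library and 2958 in the control (-0.76). Smooth muscle did not follow heart and skeletal muscle. Of 6 smooth muscle markers 5 were measured, Cnn1 was higher (0.68, not called with total counts), Myh11 was lower (-1.43) and the median was -0.27. Tagln was listed at 4 reads in the Prmt5 knockdown library and 0 in the control, against 14908 reads in the Prmt5 knockdown library and 15037 in the control for Acta2, a gene of the same cells.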
